A study of Mus musculus with 6 samples.

Results

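The Fc receptor genes are described here in cortex of mice 10 days after microglia depletion and of littermate controls. They are the 6 genes Fcgr1, Fcgr2b, Fcgr3, Fcgr4, Fcer1g and Fcgrt, picked by symbol from the 23366 genes of the table, and each was present in it once. Depleted mice (A4, A5 and A6) were CX3CR1-CreERT2+/- iDTR+/-, and control mice (A1, A2 and A3) were CX3CR1-CreERT2+/- littermates without iDTR. All 6 mice were C57BL/6, and the study's methods describe tamoxifen for both genotypes, followed after a wait by diphtheria toxin. Whether controls also received the toxin is not stated in the sources used here, so an effect of the toxin itself and the loss of microglia cannot be told apart. Tamoxifen switches on the toxin receptor in cells in which the Cx3cr1 promoter is active, which in brain are microglia and border macrophages. In this model microglia return within days of depletion, so the depleted group at this time is not a group without microglia. One poly(A) RNA library per mouse was sequenced, and values are FPKM, fragments counted per kilobase of transcript and scaled to library size, so that levels of different genes can be compared.

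Fc receptors bind the constant part of antibodies and let phagocytes act on what the antibody has marked. Fcgr1, Fcgr3 and Fcgr4 encode activating IgG receptors, which signal through the common gamma chain encoded by Fcer1g. The gamma chain carries an immunoreceptor tyrosine-based activation motif (ITAM) that recruits the kinase Syk once Src family kinases have phosphorylated it. Fcgr2b encodes the inhibitory IgG receptor, whose tail carries an inhibitory motif (ITIM) that recruits phosphatases. Fcgrt encodes the neonatal Fc receptor FcRn, an MHC class I-like protein that pairs with beta-2 microglobulin, binds IgG and albumin inside endosomes and returns them from degradation. In brain, microglia and border macrophages are the main cells with IgG receptors, whereas FcRn is also made by endothelium and choroid plexus.

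The difference between activating and inhibitory signalling lies in short stretches of coding sequence, shown here from GENCODE M21 transcripts (GRCm38) because the results are ordered by these roles. The Fcer1g stretch spans codons 65 to 79 of 86, and the tyrosine codons and the leucine codons of the ITAM are in capitals. Among the coding sequences of the 6 genes, the ITAM search matched Fcer1g alone. The Fcgr2b stretch spans codons 270 to 275 of 293, with the tyrosine and the last leucine codon of the ITIM in capitals. A search for the short ITIM pattern also matched other positions in Fcgr1, Fcgr4, Fcer1g and Fcgrt, and a match of this pattern alone is no sign of function.
Fcer1g ITAM: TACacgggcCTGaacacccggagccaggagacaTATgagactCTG
Fcgr2b ITIM: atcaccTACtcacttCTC

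No member passed the test across all genes, and 5 of the 6 were higher on average in depleted cortex. limma on log2(FPKM + 1) called 4 of 14385 genes tested, all higher (0.0278%, Benjamini-Hochberg adjusted p under 0.1), and none of the 6 members. At an unadjusted p under 0.05, 5 members were higher, against 4.79% of all genes tested. For 4 members the lowest depleted mouse exceeded the highest control, against 8.21% of all genes tested. For 1 member, Fcgrt, the highest depleted mouse was under the lowest control, against 9.38% of all genes tested. All 6 members passed the filter, a 6-mouse mean of 0.5 FPKM or more, and Fcgr4 passed it only at that value, through the depleted mice. Each member also had a two-sided exact permutation test, in which 3 against 3 mice give a p of 0.1 at best.

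**Figure D1:**
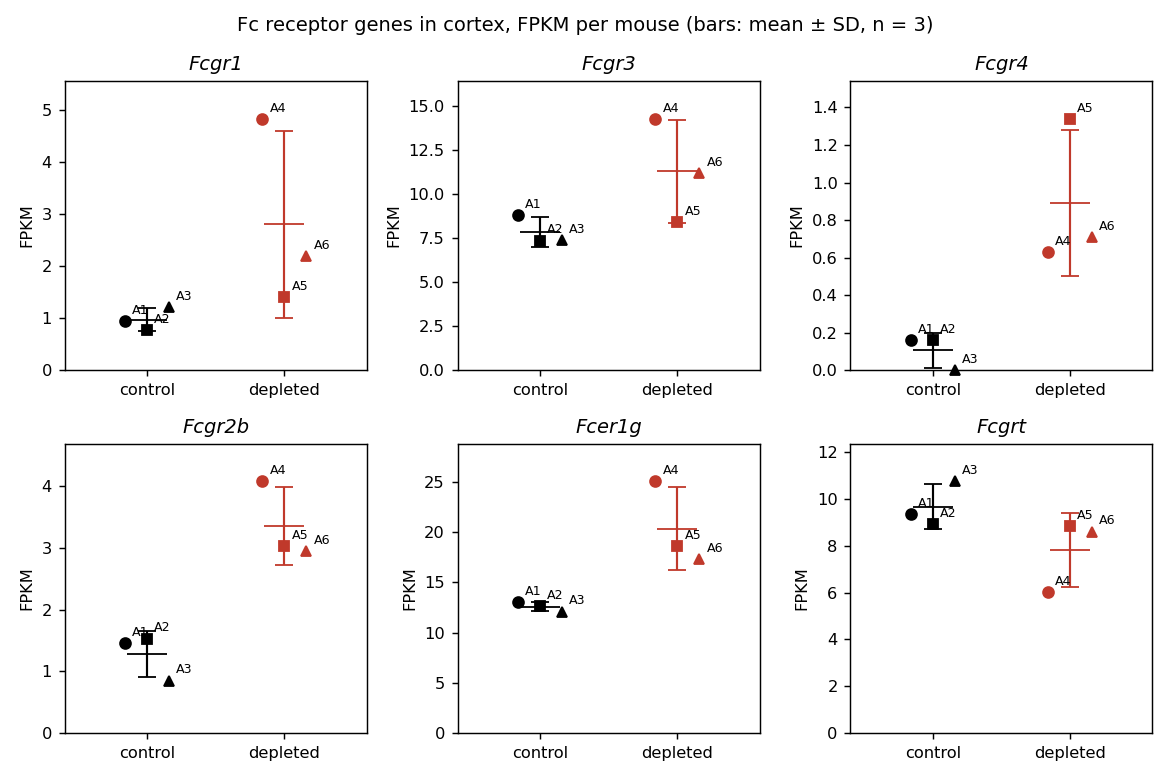
FPKM (y axis, linear from 0) of the 6 Fc receptor genes in each control (black) and depleted (red) mouse, with the group mean ± SD (n = 3). Depleted mice sit above all controls for Fcgr1, Fcgr4, Fcgr2b and Fcer1g, overlap them for Fcgr3 through A5 at 8.40 FPKM, and sit below them for Fcgrt.

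The depleted library A4 stood apart from the others, with a mean correlation to the other 5 libraries of 0.972 against 0.980 to 0.985 in A5, A6 and the controls. It was also the one library with a summed Y-linked level above 0.16 FPKM (5.56 FPKM), and control A3 had the lowest Xist level (4.74 FPKM, against 30.9 to 46.7 FPKM in the other 5). The study describes the groups as sex-matched. The spacing of low FPKM values gave about 14.3, 20.3 and 18.2 M fragments for A1 to A3 and 13.6, 3.57 and 11.2 M for A4 to A6, if 1 step is 1 fragment. In A5 the steps could also be pairs of fragments, but more genes were listed at 0 in A5 (7144) and A6 (6849) than in the other 4 libraries (5834 to 6033). Values of rare transcripts in A5 are therefore the least precise. Without A4, 4 members remained higher at an unadjusted p under 0.05, against 5.99% of all genes tested. They include Fcgr4, which passed the filter only through the depleted mice.

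Fcgr1 encodes the high-affinity IgG receptor of monocytes and macrophages. Its FPKM was 0.94, 0.77 and 1.21 in control mice A1 to A3 and 4.84, 1.40 and 2.19 in depleted mice A4 to A6. All depleted mice were above all controls, A4 was far above the other depleted mice, and A5 was close to A3. The means were 0.973 ± 0.222 and 2.81 ± 1.80 FPKM (SD, n = 3), and the log2 fold change was 0.85 (SE 0.297, limma adjusted p = 0.405, exact permutation p = 0.1). Without A4 the log2 fold change was 0.49, and without A5 it was 1.14. With the length of its coding transcript (2589 bases), the FPKM stand for about 35, 40 and 57 steps in the controls and 171, 13 and 64 steps in A4, A5 and A6.

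Fcgr3 encodes the low-affinity activating receptor and had the highest FPKM of the 4 Fc gamma receptor genes in every mouse. It had 8.83, 7.36 and 7.40 FPKM in the controls and 14.29, 8.40 and 11.20 FPKM in depleted mice. The groups overlapped, since A5 was below A1. The log2 fold change was 0.45 (SE 0.173, limma adjusted p = 0.438, exact permutation p = 0.2), and it was 0.28 without A4.

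Fcgr4 encodes a further activating receptor, found in mouse on monocytes, macrophages and neutrophils. It was near the limit of detection in controls, with 0.16, 0.16 and 0 FPKM, and had 0.63, 1.34 and 0.71 FPKM in depleted mice. All depleted mice were above all controls, and the highest value was in A5 rather than A4, unlike the other 4 genes with higher means. Its single transcript of 1256 bases makes these FPKM about 3, 4 and 0 steps in the controls and 11, 6 and 10 steps in the depleted mice, 7 against 27 steps in all. A value of 0 in A3 allows up to 0.131 FPKM, taken as 3 steps, and in A5 the same 3 steps are worth 0.670 FPKM. These limits cover counting error only. The log2 fold change was 0.76 (SE 0.196, limma adjusted p = 0.370, exact permutation p = 0.1), and it was 0.86 without A4 and 0.60 without A5. Because the added 1 FPKM exceeds every control value, the fold change of Fcgr4 on this scale is small by construction, and with a pseudocount of 0.1 it was 2.33.

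Fcgr2b, the inhibitory receptor gene, had the lowest p of the 6 members and ranked at 27 among all genes tested. It had 1.46, 1.53 and 0.85 FPKM in the controls and 4.08, 3.03 and 2.95 FPKM in A4 to A6. The 3 depleted mice lay close together and above all controls. The means were 1.28 ± 0.374 and 3.35 ± 0.631 FPKM (SD, n = 3), a ratio of 2.62 and a log2 fold change of 0.94 (SE 0.176, limma adjusted p = 0.293, exact permutation p = 0.1). Leaving out A4 gave 0.82 and leaving out A5 gave 0.99, so no single depleted mouse carried the difference.

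Fcer1g, the gamma chain gene, had the highest FPKM of the 6 members in every mouse. It had 13.05, 12.65 and 12.09 FPKM in the controls, the narrowest spread of the members relative to the mean, and 25.07, 18.66 and 17.36 FPKM in the depleted mice. All depleted mice were above all controls. The means were 12.6 ± 0.482 and 20.4 ± 4.13 FPKM (SD, n = 3), a ratio of 1.62 and a log2 fold change of 0.64 (SE 0.133, limma adjusted p = 0.307, exact permutation p = 0.1). Without A4 the log2 fold change was 0.48 and the adjusted p was 0.124, the lowest that any member reached in any alternative.

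Fcgrt was the one member lower on average in depleted cortex. Its FPKM was 9.34, 8.91 and 10.75 in A1 to A3 and 6.01, 8.83 and 8.61 in A4 to A6. A4 was the lowest, while A5 was just under the lowest control, A2. The means were 9.67 ± 0.963 and 7.82 ± 1.57 FPKM (SD, n = 3), and the log2 fold change was -0.29 (SE 0.149, limma adjusted p = 0.532, exact permutation p = 0.1), and it was -0.13 without A4. Its partner gene B2m had 97.4, 93.8 and 88.4 FPKM in the controls and 263.1, 121.7 and 157.7 FPKM in the depleted mice (log2 fold change 0.87, limma adjusted p = 0.370, and 0.57 without A4). In A4, B2m was at its highest and Fcgrt at its lowest. The 7 choroid plexus markers were all lower on average, 4 of them at an unadjusted p under 0.05, with none called. Over all 14385 genes tested, 1515 had an unadjusted p under 0.05, and 689 of these were higher. For 1 of the 4 markers, Aqp1, the depleted mean was under 0.5 FPKM. It entered the test only through the controls, where it had to be higher. The 7 markers summed to 167.7 to 323.7 FPKM in controls and 45.0 to 69.8 FPKM in depleted mice. Most of this sum came from Ttr, the transthyretin gene. Of the 8 endothelial markers, 7 were higher on average (median log2 fold change 0.14), with summed FPKM of 50.7 to 55.3 and 55.8 to 59.1. The part of choroid plexus RNA in the lower Fcgrt was not tested.

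**Figure D2:**
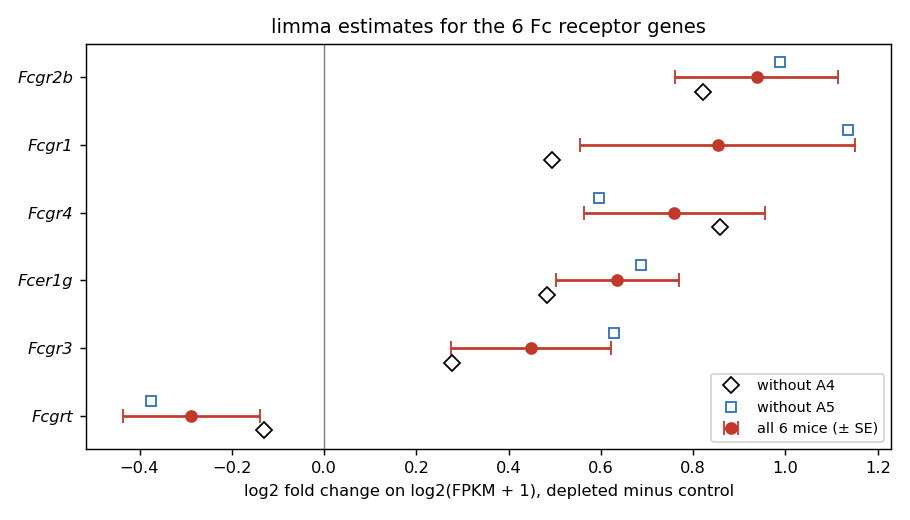
limma log2 fold change (x axis, depleted minus control on log2(FPKM + 1)) of the 6 Fc receptor genes with all mice (red, ± SE), without A4 (open diamonds) and without A5 (open squares). Fcgr2b moved least, from 0.82 to 0.99, and Fcgr1 most, from 0.49 to 1.14; Fcgrt was negative in each fit.

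In control cortex the order of FPKM levels was Fcer1g, Fcgrt, Fcgr3, Fcgr2b, Fcgr1 and Fcgr4. The ranges of the neighbours Fcgr2b and Fcgr1 overlapped in both groups, so their order is not set by these data. Fcgrt was above Fcgr3 in the controls (8.91 to 10.75 against 7.36 to 8.83 FPKM), whereas in depleted mice their ranges overlapped (6.01 to 8.83 against 8.40 to 14.29 FPKM). Fcer1g stayed above Fcgr3, and Fcgr4 stayed lowest, in both groups.

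Fcgr3 made up less of the Fc gamma receptor RNA in every depleted mouse, and Fcgr2b and Fcgr4 made up more. Fcgr1, Fcgr2b, Fcgr3 and Fcgr4 summed to 11.4, 9.82 and 9.46 FPKM in the controls and to 23.8, 14.2 and 17.1 FPKM in the depleted mice. Fcgr3 made up 77.5, 74.9 and 78.2% of this sum in controls and 59.9, 59.3 and 65.7% in depleted mice, so the groups were well apart. The share of Fcgr2b was 12.8, 15.6 and 8.99% in controls and 17.1, 21.4 and 17.3% in depleted mice. Fcgr1 took 8.25, 7.84 and 12.8% in controls and 20.3, 9.88 and 12.8% in depleted mice, with the values of A3 and A6 nearly equal. Fcgr4 took at most 1.63% in controls and 2.64, 9.46 and 4.16% in depleted mice. These shares are descriptions with no test, and each share depends on the others. They also depend on how reads were split between Fcgr2b and Fcgr3, whose coding sequences are alike, as given below. The Fcgr4 share rests on about 7 steps over all controls and 6 steps in A5.

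**Figure D3:**
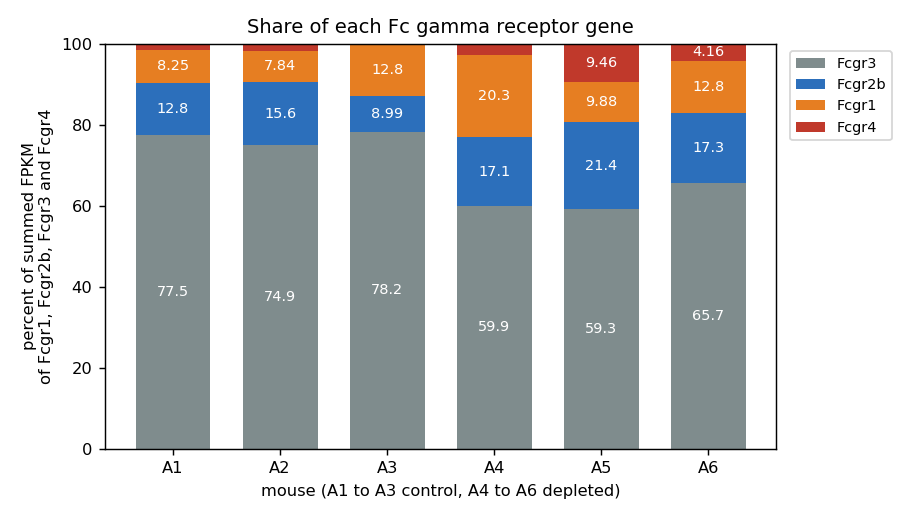
Share (y axis, percent) of Fcgr3, Fcgr2b, Fcgr1 and Fcgr4 in their summed FPKM, 1 stacked bar per mouse. Fcgr3 takes 74.9% or more in each control and 65.7% or less in each depleted mouse. Fcgr2b takes more in each depleted mouse than in any control. Both shares depend on how reads were split between Fcgr2b and Fcgr3.

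The ratio of the activating receptor genes (Fcgr1, Fcgr3 and Fcgr4 summed) to Fcgr2b was 6.80, 5.42 and 10.1 in the controls and 4.84, 3.68 and 4.78 in A4, A5 and A6. Every depleted mouse was below every control, that is, the inhibitory gene was further above its control level than the activating sum. This ratio rests on keeping Fcgr2b and Fcgr3 apart, and their coding sequences are 96.5% identical over 509 aligned bases. They share 94 windows of 75 bases, the read length, which are 1.63% of the windows of Fcgr2b transcripts and 5.42% of those of Fcgr3. Fcgr1, Fcgr4, Fcer1g and Fcgrt share no such window with any annotated gene, whereas Fcgr2b transcripts also share short stretches with other genes. The longest identical run has 129 bases, at coding bases 278 to 406 of Fcgr2b and 263 to 391 of Fcgr3, and is printed because a read within it cannot be assigned to either gene from its own sequence.
Fcgr2b and Fcgr3 shared run: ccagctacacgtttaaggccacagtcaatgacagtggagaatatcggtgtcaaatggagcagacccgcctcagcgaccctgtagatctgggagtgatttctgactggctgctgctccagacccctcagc
Summed to avoid the split, Fcgr2b and Fcgr3 had 10.29, 8.89 and 8.25 FPKM in controls and 18.37, 11.43 and 14.15 FPKM in depleted mice. The ratio of Fcgr1 and Fcgr4 to this sum was 0.107, 0.105 and 0.147 in controls and 0.298, 0.240 and 0.205 in depleted mice, higher in every depleted mouse. The Fcer1g to activating receptor ratio was 1.31, 1.53 and 1.40 in controls and 1.27, 1.68 and 1.23 in depleted mice, and these groups overlapped.

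In bulk tissue, more cells of a type and more RNA per cell cannot be told apart, so the members were also set against 8 pan-myeloid markers. The summed FPKM of these markers was 93.2, 76.5 and 85.0 in controls and 179.8, 97.2 and 149.0 in A4, A5 and A6, with 7 of 8 higher on average and none called with all mice. Per 100 FPKM of the 8 summed markers, Fcer1g had 14.0, 16.5 and 14.2 FPKM in controls and 13.9, 19.2 and 11.7 FPKM in depleted mice. No separation was left on this scale. The sum rests most on Ctss, which had a log2 fold change of 1.07, whereas Csf1r in the same sum had -0.08. The overlap of Fcer1g holds for this sum and for Aif1 alone, and no ratio to Csf1r was taken. Fcgr3 had 9.48, 9.62 and 8.70 in controls and 7.95, 8.64 and 7.52 in depleted mice on that scale, just lower in every depleted mouse. Fcgr2b had 1.57, 1.999 and 0.9996 against 2.27, 3.12 and 1.98, with A6 slightly below A2. Fcgr1 had 1.009, 1.006 and 1.42 against 2.69, 1.44 and 1.47, where A5 and A6 were close to A3. Fcgr4 had 0.172, 0.209 and 0 against 0.350, 1.38 and 0.477, still higher in every depleted mouse. Fcgrt had 10.02, 11.6 and 12.6 against 3.34, 9.08 and 5.78, lower in every depleted mouse. The depleted mean of Fcgrt was 0.531 of the control mean on this scale and 0.809 in FPKM. The marker sum in the denominator was itself 1.67 of its control mean. FcRn is also made by endothelium and choroid plexus, so myeloid markers do not stand for all of its source cells.

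**Figure D4:**
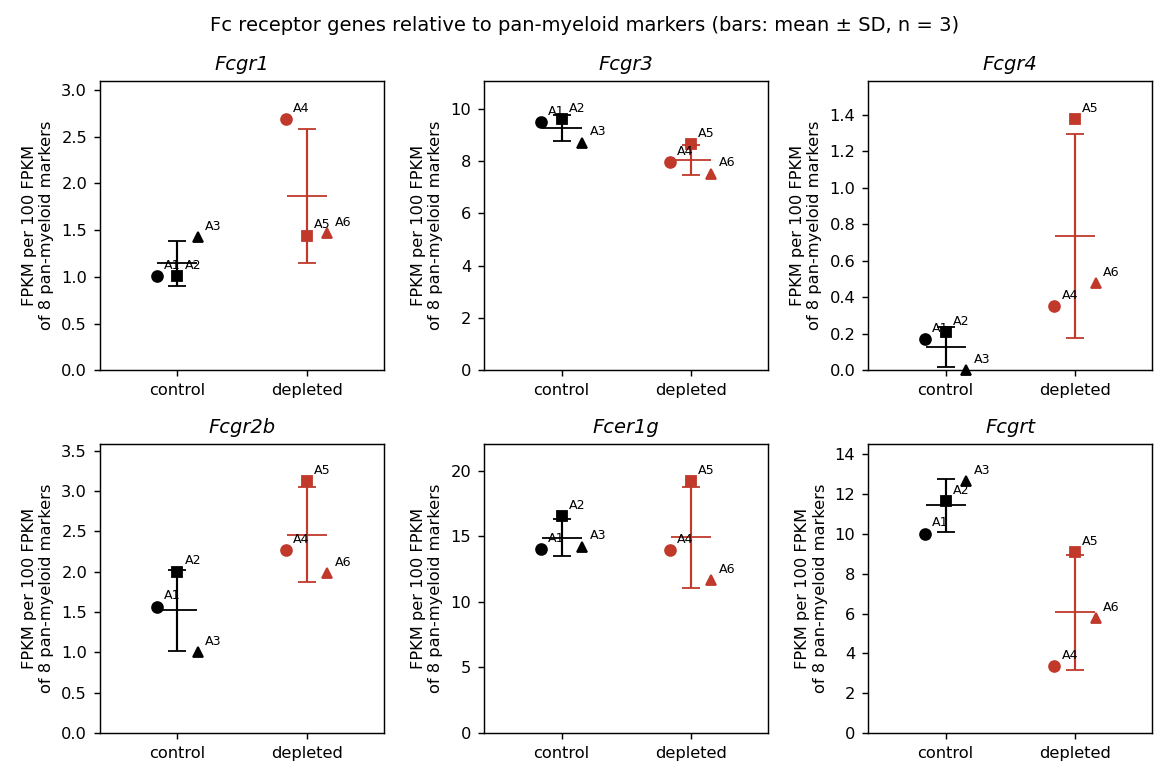
FPKM of each Fc receptor gene per 100 FPKM of 8 summed pan-myeloid markers (y axis, linear from 0) in each mouse, with the group mean ± SD (n = 3). Fcer1g has nearly the same mean in both groups (14.9 and 14.9), Fcgr4 is higher and Fcgr3 and Fcgrt are lower in every depleted mouse. Ctss is the largest part of the sum in every mouse, so these positions depend on it.

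The labelled cortex showed its neuronal markers (summed FPKM of 2192 to 2553 in controls and 2246 to 2344 in depleted mice). Microglia markers were present in depleted mice, with a sum of 84.1 to 99.3 FPKM in controls and 93.8 to 113.5 FPKM in depleted mice. Of these 10 genes, 8 were higher and 2 lower on average, none was called, and the median log2 fold change was 0.07 (-0.03 without A4). P2ry12, a purinergic receptor of resting microglia, had a log2 fold change of -0.35, Tmem119 had 0.16 (-0.04 without A4) and Cx3cr1 had 0.02 (-0.03 without A4). Among the pan-myeloid markers, Ctss (cathepsin S) had 1.07 and Aif1 (Iba1) had 0.74, both called without A5 (limma adjusted p = 0.0183 and 0.0413), while Csf1r, the receptor for colony-stimulating factor, had -0.08 and turned positive without A5 (0.04).

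Other cells with Fc receptors were measured by their markers, and the part of these cells in the results was not tested. Monocyte markers summed to 4.21 to 4.38 FPKM in controls and 4.02 to 7.04 FPKM in depleted mice, with 2 of 7 tested, 1 higher, at an unadjusted p under 0.05, and 1 lower. The higher one was Ly6c2, with 0.18, 0.46 and 0.15 FPKM in controls and 1.73, 0.39 and 0.88 FPKM in depleted mice (log2 fold change 0.62, limma adjusted p = 0.458, and 0.36 without A4). Its groups overlapped, it passed the filter only through the depleted mice, and its reads can be split with the near-identical Ly6c1. Vcan, which is also made by other cells, was the largest part of the sum in every mouse. In A4, Plac8 added 2.28 FPKM, against at most 0.49 FPKM in controls and 0 in A5 and A6. Neutrophil markers summed to 4.10 to 6.11 and 3.14 to 8.19 FPKM, with 3 of 6 tested, 1 higher and 2 lower. Border macrophage markers summed to 8.41 to 8.71 and 5.67 to 7.94 FPKM, lower in every depleted mouse, with 2 of 6 tested genes higher and 4 lower. B and plasma cell markers summed to at most 1.76 FPKM in any mouse, none of 7 passed the filter, and Ms4a1 and Blk were among those listed at 0 in every mouse. NK and T cell markers summed to 2.90 to 3.70 and 2.16 to 3.83 FPKM, mostly from Cd4, with Ncr1 and Gzmb at 0. A4 had 1.08 FPKM of Cd3d and 0.42 FPKM of Cd3g, against at most 0.13 and 0.05 FPKM in any other mouse. In A4, Cd3e was at 0 and Cd8a at 0.02 FPKM. Mast cell and basophil markers summed to 2.0 to 2.80 and 2.01 to 2.71 FPKM, with Mcpt8 at 0.

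A list of adaptors of this kind and of the receptors that pair with them held 18 genes measured, of which 6 passed the filter. Of these 6, 5 were higher on average and 1 lower, 4 were higher at an unadjusted p under 0.05, and none was called with all mice. For 2 of these 4, Clec7a and Hcst, the control mean was under 0.5 FPKM, so they entered the test only through the depleted mice, where they had to be higher. Their median log2 fold change was 0.56 (0.41 without A4), against -0.01 over all genes tested. Tyrobp, which encodes the adaptor DAP12, had 26.5, 21.1 and 29.0 FPKM in controls and 54.1, 30.1 and 37.1 FPKM in depleted mice (log2 fold change 0.61, limma adjusted p = 0.394, and 0.39 without A4). The ratio of Fcer1g to Tyrobp was 0.492, 0.6004 and 0.417 in controls and 0.463, 0.620 and 0.468 in depleted mice, so both adaptor genes kept about the same proportion. Clec7a, which encodes the beta-glucan receptor dectin-1, had at most 0.12 FPKM in controls and 2.75, 0.74 and 1.87 FPKM in depleted mice. Its log2 fold change of 1.26 was not called with all mice (limma adjusted p = 0.310) and passed the threshold without A5 (1.56, adjusted p = 0.0470), with the same limit from the filter. Hcst, whose product DAP10 has no ITAM and works beside DAP12, had a log2 fold change of 0.85, and Trem2, a lipid receptor that signals through DAP12, had 0.50.

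Downstream of the ITAM, the differences were small. Of 7 kinase genes tested, 5 were higher and 2 lower on average. Of the 7, 1 had an unadjusted p under 0.05 and none was called (median log2 fold change 0.16, and 0.10 without A4). Among the 5 higher, Btk had a control mean under 0.5 FPKM and so entered the test only through the depleted mice. Lyn, a Src family kinase of ITAM and ITIM receptors, had 2.39, 1.79 and 1.88 FPKM in controls and 3.63, 3.13 and 3.10 FPKM in depleted mice (log2 fold change 0.51). Syk itself was low, with 0.85 to 0.91 FPKM in controls and 1.2, 0.82 and 0.82 FPKM in A4 to A6. Its log2 fold change of 0.05 (SE 0.154) was -0.04 without A4. Of 17 adaptor and effector genes tested, 11 were higher and 6 lower, with 3 and 1 at an unadjusted p under 0.05 and none called (median 0.21, and 0.06 without A4). Was, which drives actin assembly in blood cells, had a log2 fold change of 0.44, and Prkcd, a protein kinase C, had -0.32.

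**Figure D5:**
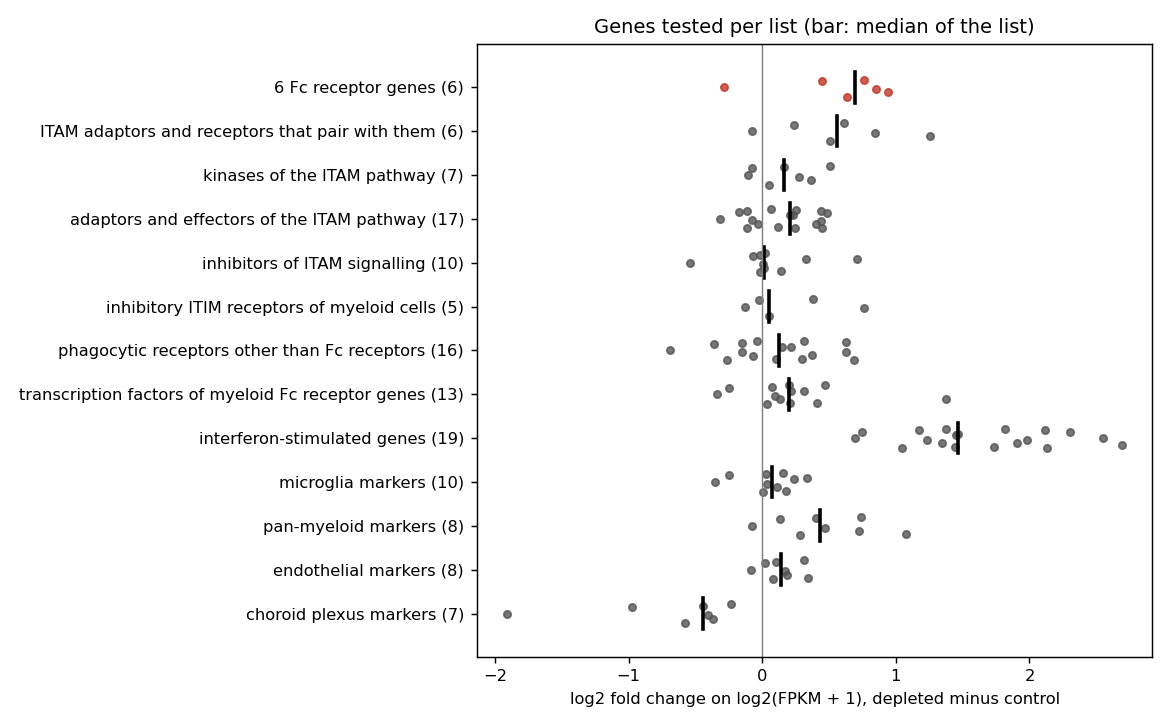
limma log2 fold change (x axis, depleted minus control on log2(FPKM + 1)) of the genes tested in the Fc receptor group (red) and in 12 lists (grey), 1 point per gene, with the number tested in brackets and a bar at the list's median. Interferon-stimulated genes have the highest median (1.47) and choroid plexus markers the lowest (-0.44), with most genes of the ITAM pathway near 0.

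Genes of the inhibitory side of the pathway were split in direction. Of 10 inhibitors of ITAM signalling tested, 6 were higher and 4 lower, with 1 and 1 at an unadjusted p under 0.05 and none called (median 0.01). Among the 6 higher, Dok1 had a control mean under 0.5 FPKM and so entered the test only through the depleted mice. Inpp5d encodes SHIP1, the lipid phosphatase that the Fcgr2b ITIM recruits. It had 2.71, 2.41 and 2.72 FPKM in controls and 3.80, 2.0 and 2.33 FPKM in A4 to A6, and its log2 fold change of 0.01 (SE 0.186) was -0.19 without A4. Ptpn6, the gene of the phosphatase SHP-1, had 1.17, 1.11 and 1.08 FPKM in controls and 3.60, 1.52 and 2.58 FPKM in depleted mice (log2 fold change 0.71, limma adjusted p = 0.378). Dok3, an adaptor that restrains ITAM signalling, had a log2 fold change of -0.54, which was -0.28 without A4, and its groups overlapped, with A6 (4.75 FPKM) above A1 (4.68 FPKM). Of 12 genes for other ITIM receptors of myeloid cells, 5 were tested, with 3 higher, 2 lower and none called. At an unadjusted p under 0.05, 2 were higher and 0 lower (median 0.05, which was -0.03 without A4 and 0.21 without A6). Cd300a had 0.76, Lair1, a collagen receptor gene, had 0.38, and Sirpa, the CD47 receptor gene, had -0.13 (-0.06 without A4).

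Most other Fc and Fc-like receptor genes were too low to test in cortex. Of 12 measured, 2 passed the filter, and Fcer1a and Fcamr were listed at 0 in every mouse. Fcrls, an Fc receptor-like gene used as a marker of resting microglia, had 11.88, 8.19 and 13.30 FPKM in controls and 3.83, 5.05 and 7.91 FPKM in depleted mice. Every depleted mouse was below every control, opposite in direction to the Fc gamma receptor genes (log2 fold change -0.90, SE 0.240, limma adjusted p = 0.370, and -0.70 without A4). Trim21, a cytosolic antibody receptor gene induced by interferon, had 4.21 FPKM in A4 and 0.79 to 1.5 FPKM in the other 5 mice. Of the ligand genes, Alb, Crp and Apcs were listed at 0 in every mouse. The immunoglobulin heavy and light chain genes searched for were not found by symbol among the genes measured.

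Promoters of 2 members held interferon-type motifs, and they are shown because interferon-stimulated genes were the list with the highest values. Of 19 such genes, all were higher on average and 17 had an unadjusted p under 0.05, with none called with all mice (median log2 fold change 1.47, and 0.82 without A4). Of the 19 genes, 5 had a control mean under 0.5 FPKM and so entered the test only through the depleted mice, 4 of them among the 17. Irf7 had 1.82, 0.64 and 0.74 FPKM in controls and 25.81, 4.14 and 3.75 FPKM in A4 to A6. Fcgr1, Fcgr2b, Fcgr3 and Fcer1g were also highest in A4, and Fcgr4 was not. The motifs searched, on both strands, in RefSeq windows (GRCm38.p6) of 300 bases around the start site were the interferon-stimulated response element (GAAA, any 2 bases, GAAA), the gamma-activated site TTCNNNGAA and the core GAGGAA bound by the myeloid factor PU.1. Over 32817 promoters, 3.43% held the first, 8.29% the second and 28.3% the third. A match is a description of the letters and not a bound site. Matches are in capitals below.
Fcgr1 promoter, chr3:96293920-96294219, minus strand: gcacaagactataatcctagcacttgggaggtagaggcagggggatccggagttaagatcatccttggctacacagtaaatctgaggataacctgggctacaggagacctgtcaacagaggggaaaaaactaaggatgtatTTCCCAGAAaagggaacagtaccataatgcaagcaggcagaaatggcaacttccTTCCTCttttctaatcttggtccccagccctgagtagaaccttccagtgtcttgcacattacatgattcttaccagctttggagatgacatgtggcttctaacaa
Fcgr4 promoter, chr1:171018676-171018975, plus strand: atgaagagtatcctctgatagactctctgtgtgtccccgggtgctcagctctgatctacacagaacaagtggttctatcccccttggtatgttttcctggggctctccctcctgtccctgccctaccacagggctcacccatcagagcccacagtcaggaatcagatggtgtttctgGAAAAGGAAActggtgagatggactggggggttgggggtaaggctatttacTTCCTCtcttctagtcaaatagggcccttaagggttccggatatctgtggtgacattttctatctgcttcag
The Fcgr1 window held the gamma-activated site at position -109 from the start site and the PU.1 core, read on the other strand, at -55. The Fcgr4 window held the interferon-stimulated response element at -73 and the PU.1 core at -22. Of the other members, Fcgr3 held the PU.1 core at the same site in both of its listed promoter windows, which overlap. Fcgr2b, Fcer1g and Fcgrt held none of the 3 motifs in these windows.

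Of 13 genes tested for transcription factors of myeloid Fc receptor genes, 11 were higher and 2 lower, with 2 and 1 at an unadjusted p under 0.05 and none called (median log2 fold change 0.20, and 0.06 without A4). Sfpi1, the older symbol of the PU.1 gene Spi1, had 1.12, 1.13 and 0.53 FPKM in controls and 2.05, 1.05 and 1.93 FPKM in depleted mice, with overlapping groups. Irf8, which acts with PU.1, had a log2 fold change of 0.31 (0.21 without A4), Irf5 had 0.41 and Stat6, a factor of interleukin-4 signalling, had -0.34.

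Fcgr2b, Fcgr4 and Fcgr3 lie next to each other on chromosome 1 (GRCm38 positions chr1:170958617-170976547, chr1:171018920-171029761 and chr1:171051174-171064935), and Fcer1g lies nearby at chr1:171229572-171234365. Fcgr1 lies at chr3:96282909-96293969 and Fcgrt at chr7:45092990-45103851. Next to Fcgrt, Rcn3 had a log2 fold change of -0.13, and its groups overlapped.

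Across the 6 mice, log2(FPKM + 1) of Fcgrt correlated negatively with each other member, and the other 5 correlated positively with one another. Pearson's r ran from 0.95 between Fcgr2b and Fcer1g and 0.94 between Fcgr1 and Fcgr3 down to 0.43 between Fcgr4 and each of Fcgr1 and Fcgr3. The 6 points share the group difference and the library A4, so these values are a description. Among 13218 genes of 1 FPKM or more on average, the gene most like Fcgr1 was Sat1 (r = 0.994), that most like Fcgr2b was Ypel5 (0.991) and that most like Fcgr3 was Slbp (0.997). For Fcgr4 it was Ttc3 (0.994), for Fcer1g it was 2700050L05Rik (0.995), with Prnp next (0.990), and for Fcgrt it was Pex6 (0.995). Prnp, the prion protein gene, was also among the closest 3 for Fcgr2b (0.985). These genes were picked as the highest of 13218 correlations over 6 points, so a high r was fixed by the choice.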

How the data were processed

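RNA was from cortex of 6 mice, 3 per group, grouped by the titles given to the samples. The authors selected poly(A) RNA, sequenced pairs of 75 bp reads, used TopHat for alignment and RSEM for known transcripts, applied TMM factors and deposited FPKM to 2 decimals per gene symbol. The build is mm9 per the labels, and versions are not given in the sources used here. All 6 columns were used.

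Genes averaging 0.5 FPKM or more were fitted with limma 3.58.1 (R 4.3.3) on log2(FPKM + 1), eBayes with trend, Benjamini-Hochberg over 14385 genes, threshold 0.1. The fit was tested on simulated data. The labels give no pairs of mice and no batch. limma p-values set the group difference against the spread between mice, with each gene's variance drawn toward that of genes of like level. Fragments per library were estimated from the spacing of low values of 1813 single-transcript genes, of which 80.4 to 85.0% were whole within 0.2 of a step. Python 3.11.15 and Biopython 1.88 served the other steps. Sequences came from GENCODE M21 and RefSeq GRCm38.p6.

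The members and the lists were chosen with earlier results of these data known. List genes named in the text are among the 3 highest and 2 lowest log2 fold changes of each list or were preset; some are not reported here.

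Alternatives concerned the scale (TPM, quantile normalization, median-of-ratios factors), the pseudocount (0.1), the filter (none, or 1 FPKM), the fit (array weights, robust eBayes, eBayes with no trend), the threshold (0.05), the denominator of ratios (Aif1, or Fcgr2b and Fcgr3 summed) and the mice (each left out in turn).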

Additional observations from a re-analysis of the deposited data

How the results depend on the processing

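No member was called under any alternative, and no member's log2 fold change changed sign; the adjusted p of a member was at its lowest 0.124 (Fcer1g without A4). With a minimum of 1 FPKM, Fcgr4 was not tested. The number of genes called higher over all genes was 4, and it was 2 with eBayes without trend, 13 with array weights and 2 to 22 when a mouse was left out, the most without A5. The number called lower was 0, and it was 7 with array weights and 0 to 7 when a mouse was left out. The cause was not tested. Among genes of the lists, Clec7a, C1qa, Aif1, Ctss and Ccl5 were called higher without A5, Ccl5 (adjusted p = 0.0950) also with array weights, and Ttr was called lower with array weights (adjusted p = 0.0950). No paired analysis was possible because the mouse numbers of the control and depleted groups do not repeat between groups.

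With Fcgr2b and Fcgr3 summed, the log2 ratio of activating to remaining receptor FPKM was 1.05, against -0.749 with Fcgr2b alone, since Fcgr3 changes sides. With Aif1 as the denominator, the log2 ratio for Fcgr3 was -0.33 against -0.21. Some genes near 0 changed sign: with array weights the log2 fold change was -0.00424 for Syk, -0.11 for Inpp5d and -0.0299 for Cx3cr1. Over the fits that leave out a mouse, Syk ran from -0.0441 to 0.0927, Inpp5d from -0.19 to 0.147, Csf1r from -0.175 to 0.0390, Tmem119 from -0.0393 to 0.304 and Cx3cr1 from -0.0342 to 0.103.

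Depth limits Fcgr4 most: control values rest on at most 4 steps per mouse, and 1 step in A5 is worth 0.223 FPKM.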

Other observations

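Phagocytic receptors and opsonins other than Fc receptors were split in direction. Of 16 tested, 9 were higher and 7 lower on average, with 4 and 2 at an unadjusted p under 0.05. None was called with all mice (median log2 fold change 0.13, and 0.01 without A4). Among the 9 higher, Cd36 had a control mean under 0.5 FPKM and so entered the test only through the depleted mice. C1qa, a chain of complement C1q, which binds antibody-coated surfaces as Fc receptors do, had 38.1, 33.1 and 37.7 FPKM in controls and 78.1, 42.6 and 61.2 FPKM in depleted mice. Its log2 fold change was 0.69 (limma adjusted p = 0.370), and without A5 it was 0.91 (adjusted p = 0.0705). Mfge8, which bridges phosphatidylserine on dying cells to integrins, had 90.3, 79.5 and 90.4 FPKM in controls and 34.98, 68.7 and 63.1 FPKM in depleted mice (log2 fold change -0.69, limma adjusted p = 0.387, and -0.39 without A4).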
